A study of Saccharomyces cerevisiae x Saccharomyces paradoxus and Saccharomyces cerevisiae and Saccharomyces paradoxus with 10 samples.

Results

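The genes described here encode the enzymes that build arginine, and they were the rows of the deposited gene table named ARG1, ARG2, ARG3, ARG4, ARG5,6, ARG7, ARG8 and CPA1. They were chosen by name from the pathway, with earlier results of these data known. All 8 were found among the 4637 genes of the table, and all 8 were among the 4544 genes with enough coverage to be tested. The label of the group held against the annotation, since each of the 8 is annotated as a coding gene under that name.

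Messenger RNA (poly-A selected) and ribosome-protected fragments (RPF), which are pieces of mRNA that a ribosome shielded from digestion, were sequenced from a yeast hybrid and from its parents. The hybrid was a diploid made by crossing S. cerevisiae BY4176, given as MAT-alpha with the markers lys2 and ura::KAN, with S. paradoxus CBS432, given as MATa with ura::HYG. The parents were S. cerevisiae BY4176, labelled haploid, and S. paradoxus CBS432, labelled diploid, although the description of 1 mixed library speaks of haploid strains. All cultures were started from single colonies and grown in YPD, a rich medium that contains arginine, at 30 °C for at least 16 h to an optical density at 600 nm of 0.5 to 0.7. RPF came from the 80S single-ribosome fractions of a gradient. Each of the 4 settings (mRNA and RPF of the hybrid, mRNA and RPF of the parents) had 2 replicates and each replicate gave 1 value per species, which makes 16 columns in all. The parental RPF libraries are labelled as mixtures of both parents, and the second of them was run on 2 lanes. For parental mRNA there was 1 library of the mixed parents and 1 made from each parent alone, and the labels do not say which replicate each supplied.

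In the hybrid both copies of a gene sit in 1 cell, so a difference between them is called cis. A difference between the parents is the whole species difference, and what is left of it after the hybrid difference is subtracted is called trans, which covers whatever differs between the cells the copies sit in. Species, ploidy, mating type and the URA3 marker all differ between the cells compared, and the lys2 marker is given only for S. cerevisiae BY4176. The parts of these in a parental or trans value cannot be told apart.

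Yeast makes ornithine from glutamate through acetylated intermediates in the mitochondrion, joins it to carbamoyl phosphate to form citrulline, and turns citrulline into arginine in the cytosol. In S. cerevisiae the activator Gcn4 raises these genes when amino acids run short, and its own translation is held back by short open reading frames in the leader of its mRNA. When arginine is plentiful, a complex of Arg80, Arg81 and Mcm1, which needs the kinase Arg82, represses ARG1, ARG3, ARG5,6 and ARG8 and activates the arginase gene CAR1, while CPA1 is limited by a peptide encoded in its mRNA leader.

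The sequence TGACTC, the core of the site that Gcn4 binds, was searched on both strands in the 500 bases before each start codon of the S. cerevisiae R64 genome (NCBI RefSeq), where the reverse complement reads GAGTCA. It was found before all 8 arginine genes, and before 596 of the 4401 genes of the table that could be placed (13.5%). The match nearest to the start codon of each gene is shown because all 8 genes held one; each is 30 bases on the strand of the gene, 5′ to 3′, with the match in capitals.
ARG2, chrX:306030-306059: gatcttcccatgGAGTCAtaagcacgttcg
ARG5,6, chrV:295221-295250: ggtggtaattgaTGACTCttctattttttt
ARG8, chrXV:58567-58596: cagctcgctatgTGACTCacttaaagtaca
ARG7, chrXIII:396514-396543: ggacaggtaggaTGACTCactgcgtaattc
CPA1, chrXV:882592-882621: cttttcttttctTGACTCgtcgtttctttt
ARG3, chrX:268473-268502: agggtcacgtcgTGACTCatatgctttctt
ARG1, chrXV:218925-218954: tgccgtatggaaGAGTCAtttaaaggcagg
ARG4, chrVIII:141564-141593: ttagtagatgaaTGACTCactttttggata
The matches end between 84 bases (ARG2) and 308 bases (ARG3) before the start codon, and in ARG2 and ARG1 they lie on the opposite strand. ARG1, ARG3, ARG5,6 and CPA1 hold a second match in the window, which for ARG3 falls within the coding sequence of the neighbour SIP4. A match of letters is not a measured binding site, and the S. paradoxus promoters were not analysed here. The letters TATAAA (reverse TTTATA), which share no match with TGACTC, were found before 5 of the 8 genes and before 60.1% of all placed genes.

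The leader of CPA1 holds the reading frame YOR302W, on chromosome XV at 882765 to 882842, which encodes the arginine attenuator peptide of 25 amino acids and ends 56 bases before the CPA1 start codon. Its first 30 bases, with the start codon in capitals, are shown because this frame is a known point of translational control in the pathway.
YOR302W: ATGtttagcttatcgaactctcaatacacc
This frame had no row of its own in the table, so only the coverage of the CPA1 coding sequence is given here. The 8 coding genes lie on 5 chromosomes of R64: ARG5,6 on chromosome V at 295410 to 298001, ARG4 on chromosome VIII at 140011 to 141402, ARG3 and ARG2 on chromosome X at 268799 to 269815 and 306132 to 307856, ARG7 on chromosome XIII at 395054 to 396379, and ARG8, ARG1 and CPA1 on chromosome XV at 58759 to 60030, 219211 to 220473 and 882899 to 884134.

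Levels are given in ppm of the summed coverage of a column. Coverage adds up the bases of all reads over a gene rather than the reads themselves, and the reads behind each value are unknown. Column totals ran from 60.6 to 167 Mb. URA3, marked as replaced in the strains that were crossed, stood between 3.99 and 12.5 ppm in the 8 hybrid columns and between 164 and 247.5 ppm in the 8 parental columns, as the labels say. The species ratio differed between replicates by a median of 0.17 and 0.19 on the log2 scale in hybrid and parental mRNA, and by 0.35 and 0.33 in hybrid and parental RPF, so mRNA values are the more precise. P-values and SE rest on the spread between replicates, pooled over the settings and drawn toward that of genes of like coverage. They are not the spread of a gene's own 2 replicates in 1 setting. The labels of the parental libraries do not say whether those replicates were separate cultures. Differences in log2 are of ppm plus 0.5, which understates those of weak genes such as ARG3. Where replicates are said not to overlap, 2 values are set against 2, and the share over all genes was not counted.

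The arginine genes as a group took far more of the S. paradoxus parent's transcriptome than of any other. The 8 genes together held 914 and 941 ppm of S. cerevisiae parental mRNA, against 2624 and 2614 ppm of S. paradoxus parental mRNA. In parental RPF they held 546 and 533 ppm in S. cerevisiae, against 2687 and 2692 ppm in S. paradoxus. In the hybrid the species were much closer, at 901 and 814 ppm of mRNA for the S. cerevisiae copies, against 1125 and 1045 ppm for the S. paradoxus copies. Hybrid RPF gave 583 and 581 ppm for the S. cerevisiae copies, against 801 and 767 ppm for the S. paradoxus copies. The S. paradoxus parent is thus the one that stood apart, and its sum was over that of its own copies in the hybrid in every replicate.

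**Figure D1:**
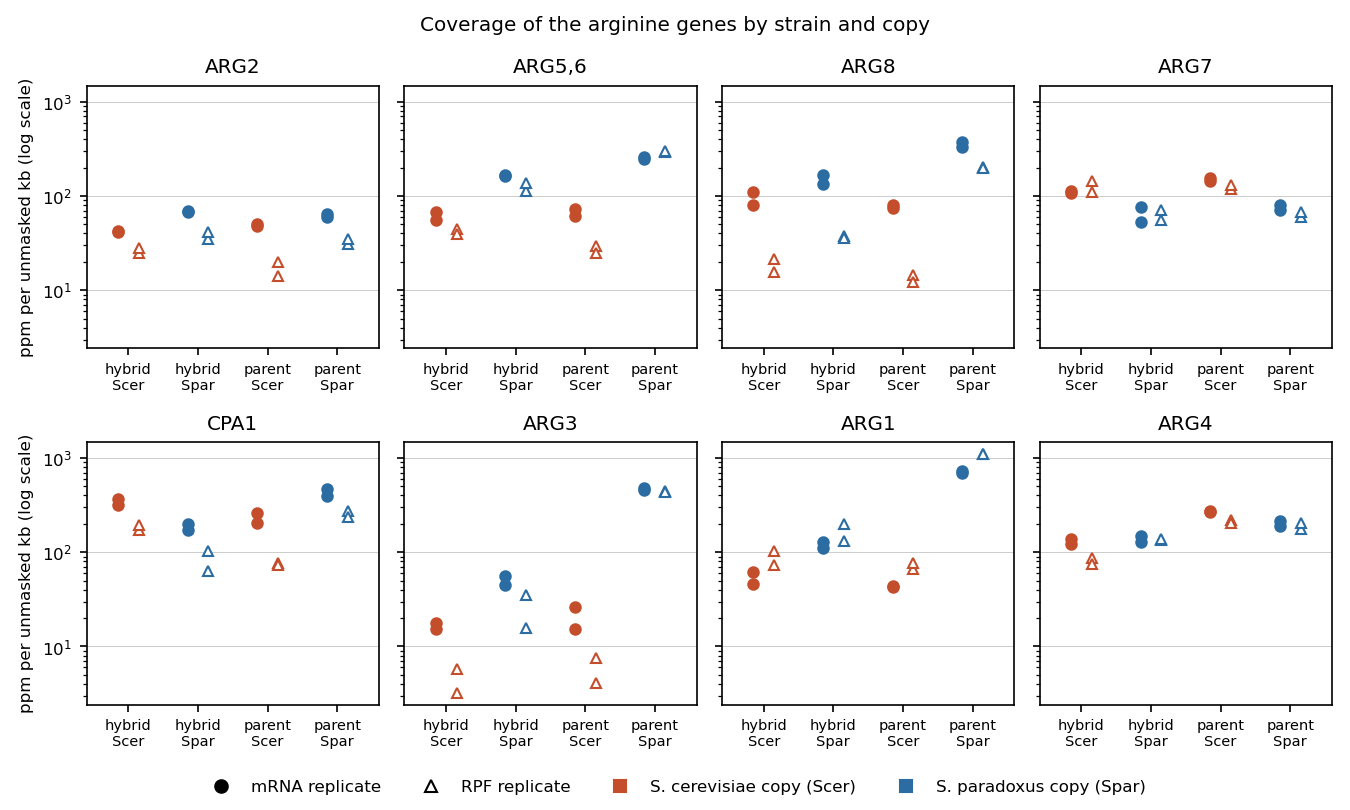
Coverage of each arginine gene in ppm per kilobase of unmasked sequence (log scale) for the S. cerevisiae copy (Scer) and the S. paradoxus copy (Spar) in the hybrid and in the parents; filled circles are the 2 mRNA replicates and open triangles the 2 RPF replicates. ARG3 and ARG1 are the genes whose S. paradoxus parent lies farthest above the other groups, at a mean of 468 and 712 ppm per kb of mRNA.

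Between the parents, 7 of the 8 genes differed in mRNA by limma at an adjusted p under 0.05, where 58.6% of all tested genes did: 5 were lower in S. cerevisiae and 2 were higher. In RPF 7 of 8 differed as well, 6 lower and 1 higher in S. cerevisiae, where 35.9% of all tested genes did. The median difference of the 8 genes was -1.41 in mRNA and -2.60 in RPF, beside 0.04 and -0.07 over all tested genes. The genes differed by very unequal amounts, and they are taken in the order of the pathway.

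ARG2, for acetylglutamate synthase, which opens the pathway, differed little. Its mRNA stood at 81.9 and 77.7 ppm in the S. cerevisiae parent, against 103 and 96.7 ppm in the S. paradoxus parent. RPF of ARG2 stood at 32.5 and 22.7 ppm in the S. cerevisiae parent, against 49.9 and 56.1 ppm in the S. paradoxus parent. The species did not overlap in either measure, but the mRNA difference missed the threshold (log2 -0.32 ± 0.14 SE, n = 2, adjusted p = 0.0627) while the RPF difference passed it (-0.95 ± 0.26, adjusted p = 0.00724). Without parental RPF replicate 2 the RPF call was lost (-0.61, adjusted p = 0.248), and with median-of-ratios scaling or with the parental mRNA libraries fitted alone the mRNA difference was called (adjusted p = 0.0281 and 0.0371).

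ARG5,6 encodes 1 precursor that is cut into the kinase and the reductase of the next steps. In mRNA it had 150 and 127 ppm in the S. cerevisiae parent, against 537 and 514 ppm in the S. paradoxus parent. In RPF it had 61.2 and 51.8 ppm in the S. cerevisiae parent, against 607 and 621 ppm in the S. paradoxus parent. The gene was therefore 3.8-fold lower in S. cerevisiae mRNA (log2 -1.93 ± 0.11, adjusted p = 3.72e-11) and 10.8-fold lower in RPF (-3.43 ± 0.20, adjusted p = 1.62e-10), with no overlap of replicates.

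ARG8, for the acetylornithine aminotransferase, behaved likewise. Its level was 71.1 and 66.8 ppm of mRNA in the S. cerevisiae parent, against 296 and 334 ppm in the S. paradoxus parent, which is 4.54-fold lower (log2 -2.18 ± 0.14, adjusted p = 2.55e-10). RPF was at 13.1 and 10.9 ppm in the S. cerevisiae parent, against 183 and 177 ppm in the S. paradoxus parent, which is 14.5-fold lower (-3.86 ± 0.25, adjusted p = 1.19e-09). Both RPF ratios of the species lay below both mRNA ratios.

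ARG7, for the ornithine acetyltransferase that recycles the acetyl group, ran the other way. The S. cerevisiae parent had 136 and 147 ppm of ARG7 mRNA, against 66.2 and 75.1 ppm in the S. paradoxus parent (1.99-fold higher, log2 1.00 ± 0.14, adjusted p = 5.88e-06). Its RPF reached 110 and 123 ppm in the S. cerevisiae parent, against 56.1 and 63.4 ppm in the S. paradoxus parent (0.96 ± 0.24, adjusted p = 0.00497). All S. cerevisiae values lay above all S. paradoxus values. The RPF call was lost without either parental RPF replicate, at an adjusted p of 0.0713 without replicate 1 and 0.0742 without replicate 2.

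CPA1 encodes the small subunit of the carbamoyl phosphate synthetase that serves arginine. There were 176 and 220 ppm of its mRNA in the S. cerevisiae parent, against 397 and 337 ppm in the S. paradoxus parent (1.86-fold lower, log2 -0.89 ± 0.13, adjusted p = 1.27e-05). For RPF the values were 64.9 and 62.7 ppm in the S. cerevisiae parent, against 235 and 201 ppm in the S. paradoxus parent (3.39-fold lower, -1.76 ± 0.23, adjusted p = 1.12e-05). Replicates of the species did not overlap in either measure.

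ARG3, for the ornithine carbamoyltransferase that makes citrulline, had the largest parental difference of the 8 genes. Its mRNA stood at 13.3 and 22.5 ppm in the S. cerevisiae parent, against 411 and 395 ppm in the S. paradoxus parent. RPF of ARG3 stood at 3.54 and 6.52 ppm in the S. cerevisiae parent, against 384 and 379 ppm in the S. paradoxus parent. ARG3 was thus 22.6-fold lower in S. cerevisiae mRNA (log2 -4.50 ± 0.22, adjusted p = 3.11e-12) and 71.8-fold lower in RPF (-6.17 ± 0.39, adjusted p = 6.85e-10). The S. cerevisiae RPF values are near the bottom of what the columns hold, with 5.41% of tested genes below them per kilobase, so the fold itself is uncertain.

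ARG1, for argininosuccinate synthase, followed closely. Its mRNA stood at 39.3 and 40.8 ppm in the S. cerevisiae parent, against 644 and 668 ppm in the S. paradoxus parent (16.2-fold lower, log2 -4.02 ± 0.11, adjusted p = 1.43e-15). RPF of ARG1 stood at 61.0 and 70.0 ppm in the S. cerevisiae parent, against 1012 and 1010 ppm in the S. paradoxus parent (15.4-fold lower, -3.94 ± 0.20, adjusted p = 4.14e-11). Here mRNA and RPF differed by nearly the same amount.

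ARG4, for argininosuccinate lyase, which releases arginine in the last step, had the opposite sign to ARG1 in mRNA. Its mRNA stood at 246 and 240 ppm in the S. cerevisiae parent, against 171 and 193 ppm in the S. paradoxus parent, which is 1.34-fold higher (log2 0.42 ± 0.12, adjusted p = 0.00636). This call was lost with 1 spread shared by all settings (adjusted p = 0.0563) and without parental mRNA replicate 1 (0.31, adjusted p = 0.141). RPF of ARG4 stood at 200 and 186 ppm in the S. cerevisiae parent, against 160 and 184 ppm in the S. paradoxus parent, a difference within the replicate error (0.17 ± 0.22, adjusted p = 0.58).

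The copies were then compared within the hybrid, where most of the large differences were much smaller. In hybrid mRNA 7 of the 8 genes were called, 2 higher and 5 lower for the S. cerevisiae copy, where 38.0% of all tested genes were called. In hybrid RPF 6 were called, 2 higher and 4 lower, where 12.1% of all tested genes were called. The median of the 8 genes was -0.67 in mRNA and -0.81 in RPF, beside -0.02 and -0.02 over all tested genes.

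The S. cerevisiae copy of ARG3 gave 13.1 and 15.4 ppm of hybrid mRNA, against 48.4 and 38.8 ppm for the S. paradoxus copy (2.98-fold lower, log2 -1.58 ± 0.20, adjusted p = 5.63e-06). In hybrid RPF it gave 4.97 and 2.79 ppm, against 30.4 and 13.4 ppm (4.88-fold lower, -2.29 ± 0.43, adjusted p = 0.00174). The copies of ARG3 did not overlap in either measure. Hybrid RPF of its S. cerevisiae copy is again near the bottom, with 5.94% of tested genes below it per kilobase. This fold and the trans RPF and RPF-to-mRNA values of ARG3 that rest on it are therefore uncertain. For ARG5,6 the S. cerevisiae copy gave 142 and 117 ppm of hybrid mRNA, against 342 and 337 ppm for the S. paradoxus copy (2.63-fold lower, -1.40 ± 0.10, adjusted p = 5.86e-09). In hybrid RPF that copy gave 91.6 and 82.8 ppm, against 237 and 288 ppm (2.99-fold lower, -1.58 ± 0.22, adjusted p = 9.6e-05). Among ARG3, ARG5,6, ARG1 and ARG8, it was ARG5,6 whose mRNA difference in the hybrid came nearest to that between the parents.

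For ARG1 the S. cerevisiae copy gave 56.5 and 42.1 ppm of hybrid mRNA, against 119 and 103 ppm for the S. paradoxus copy (2.26-fold lower, log2 -1.18 ± 0.10, adjusted p = 6.63e-08). In hybrid RPF it gave 96.0 and 68.0 ppm, against 184 and 121 ppm (-0.88 ± 0.22, adjusted p = 0.0142). For ARG8 the S. cerevisiae copy gave 99.5 and 72.4 ppm of hybrid mRNA, against 149 and 121 ppm (1.57-fold lower, -0.66 ± 0.13, adjusted p = 0.00065). In both genes the copies kept apart in each measure, by far less than the parents did. ARG8 gave 19.3 and 14.0 ppm of hybrid RPF for the S. cerevisiae copy, against 33.4 and 32.0 ppm for the S. paradoxus copy (-0.97 ± 0.28, adjusted p = 0.0306). ARG2 gave 66.6 and 69.5 ppm of hybrid mRNA for the S. cerevisiae copy, against 109 and 110 ppm for the S. paradoxus copy (1.61-fold lower, -0.68 ± 0.13, adjusted p = 0.000482). Its hybrid RPF, at 40.6 and 45.5 ppm against 56.2 and 66.5 ppm, missed the threshold (-0.50 ± 0.29, adjusted p = 0.284), although the copies did not overlap.

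ARG7 and CPA1 had the higher S. cerevisiae copy. ARG7 gave 100 and 105 ppm of hybrid mRNA for the S. cerevisiae copy, against 49.2 and 72.3 ppm for the S. paradoxus copy (log2 0.78 ± 0.13, adjusted p = 8.82e-05). Its hybrid RPF was 103 and 134 ppm for the S. cerevisiae copy, against 51.9 and 66.3 ppm (0.99 ± 0.27, adjusted p = 0.0236). CPA1 gave 312 and 268 ppm of hybrid mRNA for the S. cerevisiae copy, against 172 and 147 ppm for the S. paradoxus copy (1.82-fold higher, 0.86 ± 0.12, adjusted p = 1.86e-05). The hybrid copies of CPA1 therefore stood in the opposite order to the parents. Hybrid RPF of CPA1 ran the same way as its hybrid mRNA, at 148 and 166 ppm for the S. cerevisiae copy, against 87.1 and 53.3 ppm for the S. paradoxus copy (2.29-fold higher, 1.20 ± 0.26, adjusted p = 0.00554).

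The copies of ARG4 overlapped in hybrid mRNA, at 112 and 125 ppm for the S. cerevisiae copy, against 136 and 116 ppm for the S. paradoxus copy (log2 -0.09 ± 0.11, adjusted p = 0.561). In hybrid RPF its copies stood apart, at 79.7 and 68.6 ppm against 122 and 127 ppm, and just missed the threshold (-0.74 ± 0.24, adjusted p = 0.0524). It passed with a pseudocount of 1 ppm (adjusted p = 0.0475), with 1 shared spread (0.00629) and with the hybrid RPF libraries fitted alone (0.0149). The RPF calls of ARG1, ARG7 and ARG8 were lost without either hybrid RPF replicate, and that of CPA1 without replicate 2, which left 3 calls without replicate 1 and 2 calls without replicate 2. That of ARG8 was also lost with the hybrid RPF libraries fitted alone (adjusted p = 0.0661).

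**Figure D2:**
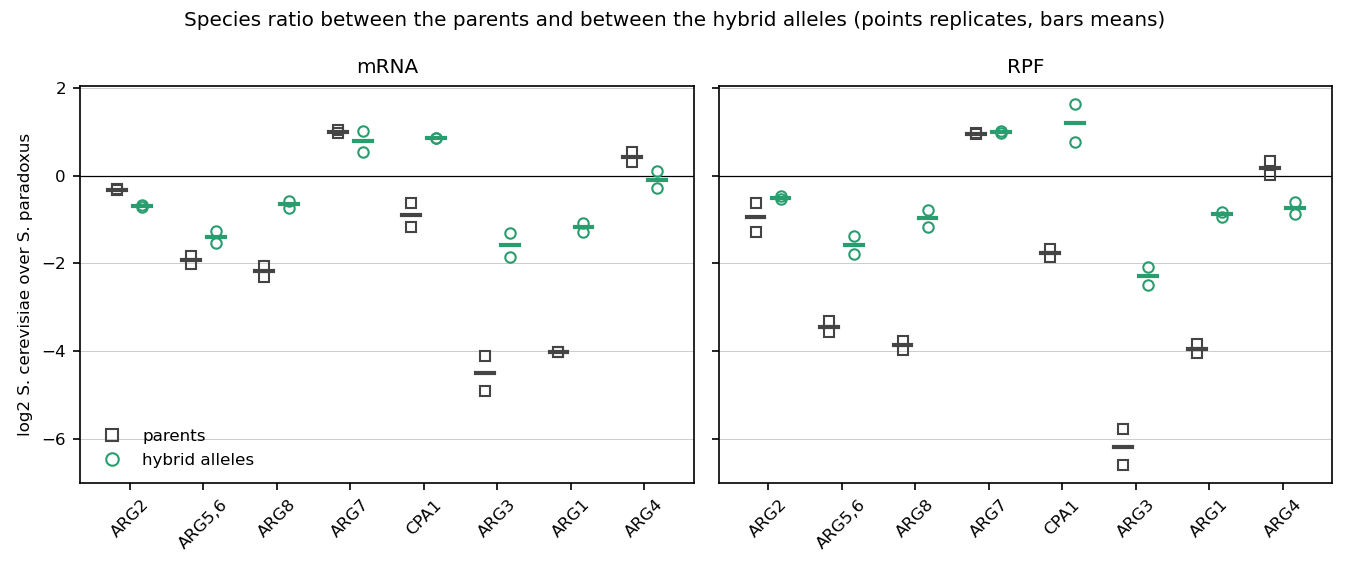
Species ratio (log2 S. cerevisiae over S. paradoxus) of each arginine gene in mRNA and in RPF, in the order of the pathway; squares are the parents, circles the hybrid copies, with 1 point per replicate and a bar at the mean of both. The parental points of ARG3 and ARG1 lie at -3.84 or below and their hybrid points between -0.82 and -2.50, and CPA1 is below 0 in the parents and above 0 in the hybrid.

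The trans part, tested as the parental minus the hybrid ratio in the same fit, was large for most of the genes. In mRNA 6 of the 8 genes were called, 5 lower and 1 higher in the S. cerevisiae direction, where 36.0% of all tested genes were called. In RPF 5 were called, all lower, where 10.9% of all tested genes were called. The median trans difference of the 8 genes was -1.03 in mRNA and -2.37 in RPF, beside 0.05 and -0.04 over all tested genes. These values share the parental and hybrid libraries with the differences above, and are no independent support for them.

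ARG3 differed most, with a parental mRNA ratio of -4.50 against a hybrid ratio of -1.58, a trans difference of -2.92 ± 0.30 (adjusted p = 4.04e-07). ARG1 was nearly as far, at -4.02 between parents against -1.18 between hybrid copies, a difference of -2.84 ± 0.15 (adjusted p = 5.32e-11). CPA1 differed by -1.75 ± 0.18 (adjusted p = 4.5e-07) and ARG8 by -1.53 ± 0.19 (adjusted p = 6.85e-06). The calls of these 4 genes were kept under every alternative with all replicates. With 1 replicate left out, the difference ran from -3.32 to -2.53 for ARG3 and from -2.95 to -2.74 for ARG1. It ran from -2.03 to -1.48 for CPA1 and from -1.66 to -1.39 for ARG8. In CPA1 the trans and cis differences had opposite signs, while in ARG3, ARG1 and ARG8 both pointed to a lower S. cerevisiae level.

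ARG5,6 had a small trans difference in mRNA (-0.53 ± 0.15, adjusted p = 0.00992), which was lost with 1 shared spread (adjusted p = 0.132) and without hybrid mRNA replicate 1 or parental mRNA replicate 2. ARG4 had the only positive one (0.51 ± 0.17, adjusted p = 0.0224), which was lost with 1 shared spread (adjusted p = 0.173) and without hybrid or parental mRNA replicate 1. ARG2 (0.36 ± 0.20, adjusted p = 0.164) and ARG7 (0.22 ± 0.19, adjusted p = 0.391) were not called.

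In RPF the trans difference was -3.88 ± 0.58 for ARG3 (adjusted p = 0.00017), -3.06 ± 0.30 for ARG1 (adjusted p = 1.04e-06) and -2.96 ± 0.35 for CPA1 (adjusted p = 1.43e-05). It was -2.89 ± 0.38 for ARG8 (adjusted p = 4.73e-05) and -1.86 ± 0.29 for ARG5,6 (adjusted p = 3e-04). These were the same 5 genes that were lower in trans mRNA, and all 5 RPF calls were kept under every alternative. ARG4 reached 0.91 ± 0.33 (adjusted p = 0.0779, or 0.0146 with 1 shared spread), and ARG2 and ARG7 were not called (-0.45 ± 0.38 and -0.03 ± 0.37, adjusted p = 0.502 and 0.963).

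To see which copy changed, each copy in the hybrid was set against the same copy in its own parent. The S. paradoxus copies fell in the hybrid: 6 of 8 were lower in mRNA and none higher, where 31.4% of all tested genes were called and 17.1% were lower. In RPF 5 of 8 were lower and none higher, where 12.9% were called and 8.05% were lower. Of the S. cerevisiae copies, 1 was higher and 2 were lower in mRNA (50.9% of all tested genes were called) and 2 were higher and 1 was lower in RPF (18.0% were called). With median-of-ratios scaling the S. cerevisiae copies split into 3 higher and 1 lower in mRNA, and 1 higher and 1 lower in RPF. Each column is scaled to its own total, so these are changes in the share of coverage.

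The S. paradoxus copy of ARG3 stood at 48.4 and 38.8 ppm of hybrid mRNA, against 411 and 395 ppm in its parent, which is 9.2-fold lower (log2 -3.20 ± 0.26, adjusted p = 7.37e-09). In RPF it stood at 30.4 and 13.4 ppm in the hybrid, against 384 and 379 ppm in the parent (18.5-fold lower, -4.21 ± 0.41, adjusted p = 3.45e-07). The S. cerevisiae copy of ARG3 overlapped its parent in mRNA and was not called (-0.28 ± 0.26, adjusted p = 0.38). ARG1 fell likewise in its S. paradoxus copy, with log2 -2.56 ± 0.15 in mRNA (5.89-fold lower, adjusted p = 4.28e-11) and -2.76 ± 0.23 in RPF (6.77-fold lower, adjusted p = 8.25e-08). Its S. cerevisiae copy was not called in mRNA (0.28 ± 0.15, adjusted p = 0.108) or RPF (0.30 ± 0.25, adjusted p = 0.44), but in mRNA it was called higher with median-of-ratios scaling (0.40, adjusted p = 0.0323) and without hybrid mRNA replicate 2 (0.49, adjusted p = 0.028).

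The S. paradoxus copy of ARG8 was lower in the hybrid, with a log2 difference of -1.23 ± 0.17 in mRNA (adjusted p = 1.19e-05) and -2.44 ± 0.27 in RPF (adjusted p = 1.25e-06). The S. cerevisiae copy of ARG8 was not called in mRNA (0.30 ± 0.17, adjusted p = 0.14), but was called higher with median-of-ratios scaling (0.41, adjusted p = 0.0453) and without hybrid mRNA replicate 2 (0.53, adjusted p = 0.0397). The S. paradoxus copy of ARG5,6 was lower too, with -0.63 ± 0.13 in mRNA (adjusted p = 0.000594) and -1.23 ± 0.20 in RPF (adjusted p = 0.000182). In the main fit, copies were called in opposite directions in RPF for ARG5,6 and CPA1, and in mRNA for CPA1 alone. Its S. paradoxus copy fell (-1.20 ± 0.15 in mRNA, adjusted p = 2.84e-06; -1.67 ± 0.24 in RPF, adjusted p = 3.76e-05). Its S. cerevisiae copy rose (0.55 ± 0.15 in mRNA, adjusted p = 0.00353; 1.29 ± 0.25 in RPF, adjusted p = 0.00106), and the mRNA call was lost without hybrid or parental mRNA replicate 1.

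ARG4 fell in both species' copies in mRNA, with -1.04 ± 0.12 for the S. cerevisiae copy (adjusted p = 7.1e-07) and -0.53 ± 0.13 for the S. paradoxus copy (adjusted p = 0.00321), the second lost without hybrid or parental mRNA replicate 2. In RPF the S. cerevisiae copy of ARG4 fell (-1.37 ± 0.21, adjusted p = 0.000118) and the S. paradoxus copy was not called (-0.46 ± 0.20, adjusted p = 0.134, or 0.0382 with 1 shared spread). The S. cerevisiae copy of ARG7 was lower in hybrid mRNA (-0.46 ± 0.16, adjusted p = 0.0221), a call that was lost with 1 shared spread, with median-of-ratios scaling and without hybrid mRNA replicate 1 or parental mRNA replicate 2. The S. cerevisiae copy of ARG5,6 was higher in hybrid RPF (0.62 ± 0.21, adjusted p = 0.0433), a call that was lost with median-of-ratios scaling, with its own settings fitted alone and without any 1 of the 4 RPF replicates. Neither copy of ARG2 was called in mRNA or RPF, though the S. cerevisiae copy was called higher in RPF with 1 shared spread (0.65, adjusted p = 0.0231).

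**Figure D3:**
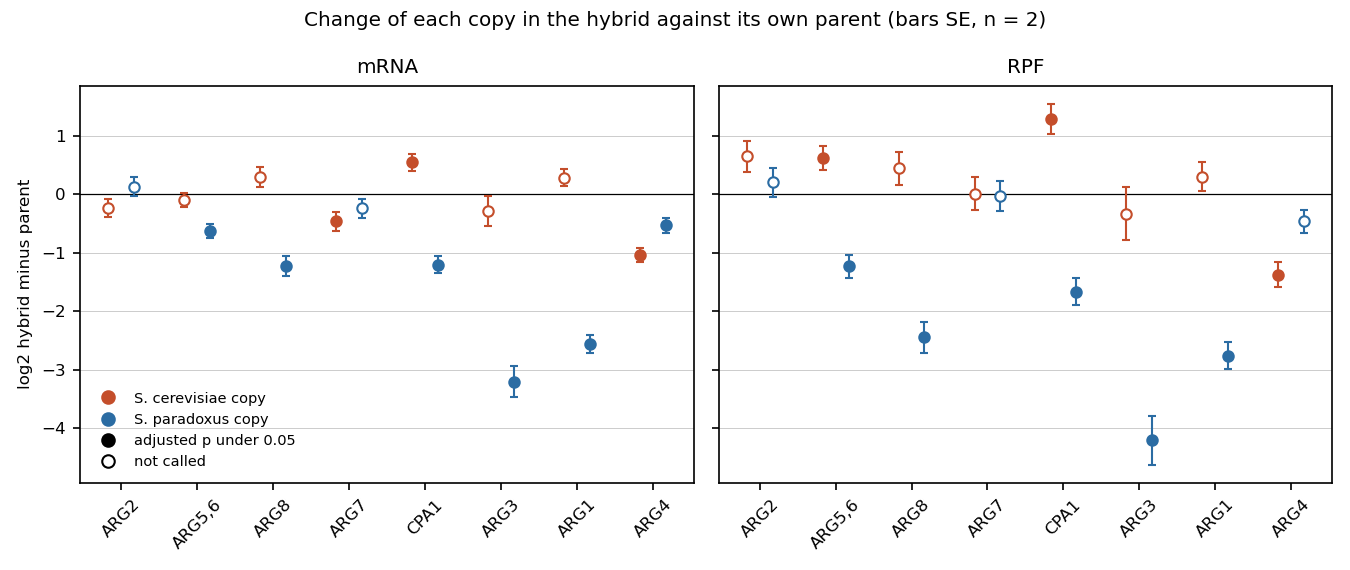
Change of each copy in the hybrid against its own parent (log2 hybrid minus parent, bars SE, n = 2) in mRNA and RPF; filled points passed an adjusted p under 0.05. S. paradoxus copies of ARG5,6, ARG8, CPA1, ARG3 and ARG1 lie below 0 in both measures, down to -4.21 for ARG3 in RPF, while S. cerevisiae copies lie between -1.37 for ARG4 and 1.29 for CPA1.

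The order of the genes by level per kilobase changed with the strain. In the S. paradoxus parent ARG1 led in mRNA (mean 712 ppm per kb, above 91.9% of tested genes), followed by ARG3 (468), CPA1 (430.5), ARG8 (352), ARG5,6 (253), ARG4 (200), ARG7 (75.3) and ARG2 (62.1); only ARG3 and CPA1 overlapped among neighbours. In the S. cerevisiae parent ARG4 led (268), ahead of CPA1 (232), ARG7 (150.5), ARG8 (76.95), ARG5,6 (66.6), ARG2 (49.2), ARG1 (43.4) and ARG3 (20.8), with no overlap between neighbours. ARG1 and ARG3 thus closed the list in S. cerevisiae and opened it in S. paradoxus.

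In the hybrid CPA1 led both copies, at a mean of 340 ppm per kb of mRNA for the S. cerevisiae copy and 187 for the S. paradoxus copy. ARG3 came last in both, at 16.5 and 50.6 ppm per kb. For the S. paradoxus copies ARG5,6, ARG8, ARG4 and ARG1 lay close together between 164 and 121 ppm per kb, and the replicates of each overlapped those of the next in that order.

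The ratio of RPF to mRNA, a measure of how densely an mRNA is occupied by ribosomes and here called translational efficiency (TE), differed widely among the 8 genes. ARG1 had a high ratio in all strains and copies. Its log2 ratio was 0.72 ± 0.23 and 0.42 ± 0.23 for the S. cerevisiae and S. paradoxus copies of the hybrid, and 0.70 ± 0.18 and 0.62 ± 0.16 for the S. cerevisiae and S. paradoxus parents, above 89.4% to 95.3% of tested genes. ARG8 had a low ratio, at -2.34 ± 0.26 and -2.02 ± 0.26 for the S. cerevisiae and S. paradoxus copies of the hybrid and -2.48 ± 0.20 in the S. cerevisiae parent, but -0.80 ± 0.18 in the S. paradoxus parent. ARG3 was alike, at -1.79 ± 0.41 and -1.08 ± 0.40 for the S. cerevisiae and S. paradoxus copies of the hybrid, -1.74 ± 0.32 in the S. cerevisiae parent and -0.08 ± 0.28 in the S. paradoxus parent. The median of the 8 genes was -1.41 in the S. cerevisiae parent and -0.16 in the S. paradoxus parent, beside -0.80 and -0.70 over all tested genes.

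Tested as an interaction, the TE of 3 genes was lower in the S. cerevisiae than in the S. paradoxus parent and that of none was higher, where 6.32% of all tested genes were called. These were ARG8 (log2 -1.68 ± 0.29, 3.2-fold, adjusted p = 0.00158), ARG5,6 (-1.51 ± 0.22, 2.84-fold, adjusted p = 0.000405) and ARG3 (-1.67 ± 0.44, 3.17-fold, adjusted p = 0.0313). The call of ARG3 was lost with 1 shared spread (adjusted p = 0.0535) and without parental mRNA replicate 2 or either parental RPF replicate, and that of ARG8 without parental RPF replicate 2 (adjusted p = 0.058). CPA1 just missed the threshold (-0.87 ± 0.27, adjusted p = 0.063, or 0.0109 without parental mRNA replicate 1), and ARG1 differed by no more than its error (0.08 ± 0.23, adjusted p = 0.888). RPF signal in ARG3 and ARG8 was among the weakest of the group in S. cerevisiae.

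No gene of the 8 differed in TE between the hybrid copies by limma (0 called, 1 at an unadjusted p under 0.05, and 0 called with 1 shared spread), where 1.41% of all tested genes were called. That gene was ARG4, whose S. cerevisiae copy had the lower TE (log2 difference -0.65 ± 0.27, unadjusted p = 0.0245, adjusted p = 0.24). None passed the threshold for the trans part of TE either (0 called, 3 at an unadjusted p under 0.05, and 0 with 1 shared spread). Of all tested genes 0.220%, namely 10, were called there. Those 3 were ARG8 (-1.36 ± 0.43, adjusted p = 0.303), CPA1 (-1.20 ± 0.39, adjusted p = 0.332) and ARG5,6 (-1.33 ± 0.33, adjusted p = 0.147). The errors of these 3 genes were 0.33 to 0.43, and that of ARG3 was 0.65. Differences of 2.3-fold to 2.57-fold in these 3 genes went uncalled, so differences of over 2-fold in trans TE could be missed at this replication. The median trans TE difference of the 8 genes was -0.88, beside -0.07 over all tested genes.

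**Figure D4:**
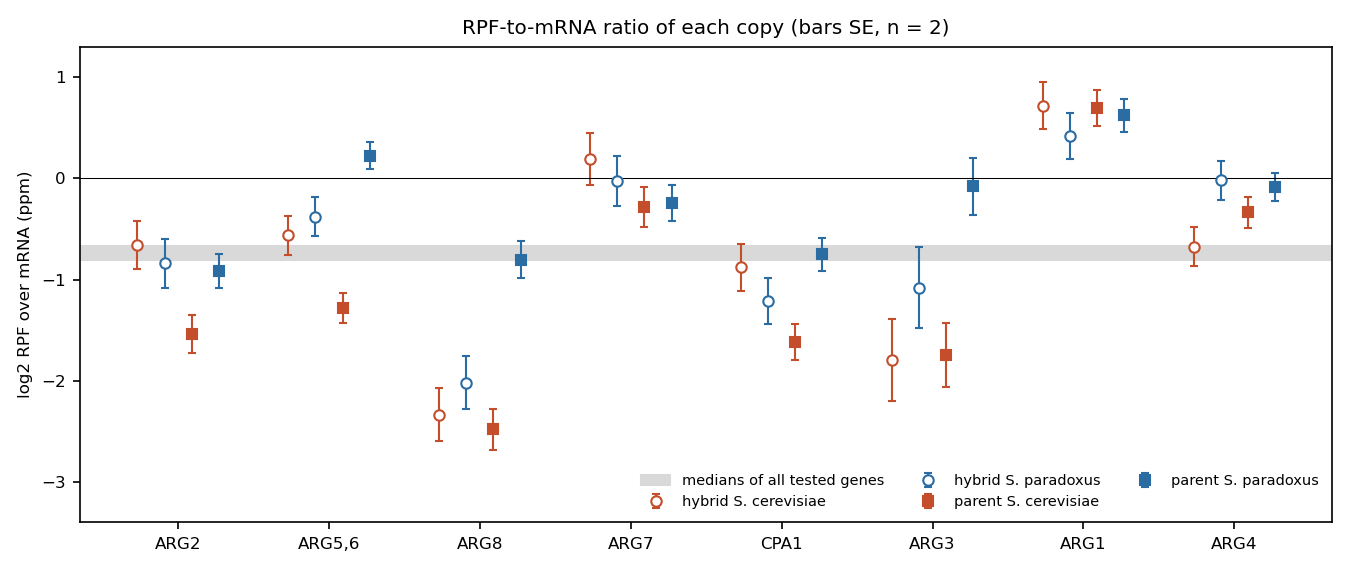
RPF-to-mRNA ratio (log2, bars SE, n = 2) of each arginine gene for the S. cerevisiae and S. paradoxus copies of the hybrid (open circles) and for the parents (filled squares); the grey band spans the medians of all tested genes. ARG1 lies above the band in all 4, and ARG8 lies far below it except in the S. paradoxus parent, at -0.80.

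The regulators of the pathway were compared in the same fit. Of 6 regulator genes, 4 differed in parental RPF, with 3 lower and 1 higher in S. cerevisiae, and 2 differed in parental mRNA, with 1 lower and 1 higher, where 35.9% and 58.6% of all tested genes were called. By limma none was called between the hybrid copies in mRNA (0 called, 1 at an unadjusted p under 0.05) or in RPF (0 called, 0 at an unadjusted p under 0.05), where 38.0% and 12.1% of all tested genes were called. In trans RPF 3 were called, all lower (GCN4, ARG81 and MCM1), where 10.9% of all tested genes were called. The same 3 were lower in parental TE, where 6.32% were called. In trans mRNA ARG81 was lower and UME6 higher, where 36.0% were called. Both trans mRNA calls and the parental TE call of ARG81 were lost with 1 shared spread. The trans RPF calls of ARG81 and MCM1 were lost without hybrid RPF replicate 2 or parental RPF replicate 1.

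GCN4, the activator, had nearly the same mRNA in all strains, at 1405 and 1525 ppm in the S. cerevisiae parent, against 1558 and 1664 ppm in the S. paradoxus parent (log2 -0.14 ± 0.09, adjusted p = 0.217). RPF of GCN4 stood at 88.8 and 58.9 ppm in the S. cerevisiae parent, against 291 and 250 ppm in the S. paradoxus parent (3.71-fold lower, -1.89 ± 0.16, adjusted p = 4.7e-08). Its parental TE was accordingly lower in S. cerevisiae (-1.76 ± 0.19, adjusted p = 2.22e-05), while the hybrid copies showed no called difference in RPF, at 82.8 and 155 ppm for S. cerevisiae against 87.0 and 197 ppm for S. paradoxus (-0.21 ± 0.19, adjusted p = 0.518). The trans part of GCN4 was -1.69 ± 0.25 in RPF (adjusted p = 0.000152). In TE it was -1.55 ± 0.28 (adjusted p = 0.018), 1 of the 10 genes called there, and this TE call was lost with 1 shared spread (adjusted p = 0.0629), with median-of-ratios scaling (0.0505) and without any 1 hybrid or parental RPF replicate or hybrid mRNA replicate.

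ARG81, which encodes the arginine sensor of the repressor complex, stood at 109 and 86.4 ppm of mRNA in the S. cerevisiae parent, against 203 and 185 ppm in the S. paradoxus parent (1.99-fold lower, log2 -0.99 ± 0.14, adjusted p = 4.64e-06). RPF of ARG81 stood at 21.8 and 23.8 ppm in the S. cerevisiae parent, against 91.4 and 86.9 ppm in the S. paradoxus parent (-1.95 ± 0.24, adjusted p = 4.51e-06). MCM1, for a protein that binds DNA with Arg80 and Arg81, was lower in S. cerevisiae parental RPF and not called in mRNA (RPF -0.98 ± 0.20, adjusted p = 0.000854; mRNA 0.01 ± 0.11, adjusted p = 0.952). ARG82 was higher in S. cerevisiae parental RPF (1.44 ± 0.33, adjusted p = 0.00221), a call that was lost without parental RPF replicate 2. UME6, a general repressor that also acts on CAR1, was higher in parental mRNA (0.48 ± 0.14, adjusted p = 0.00604), a call lost with 1 shared spread (adjusted p = 0.0629) and without parental mRNA replicate 2. ARG80 was not called in either (0.36 ± 0.18 in mRNA, adjusted p = 0.0903; 0.12 ± 0.31 in RPF, adjusted p = 0.795). Whether any of these differences bears on the arginine genes was not tested.

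**Figure D5:**
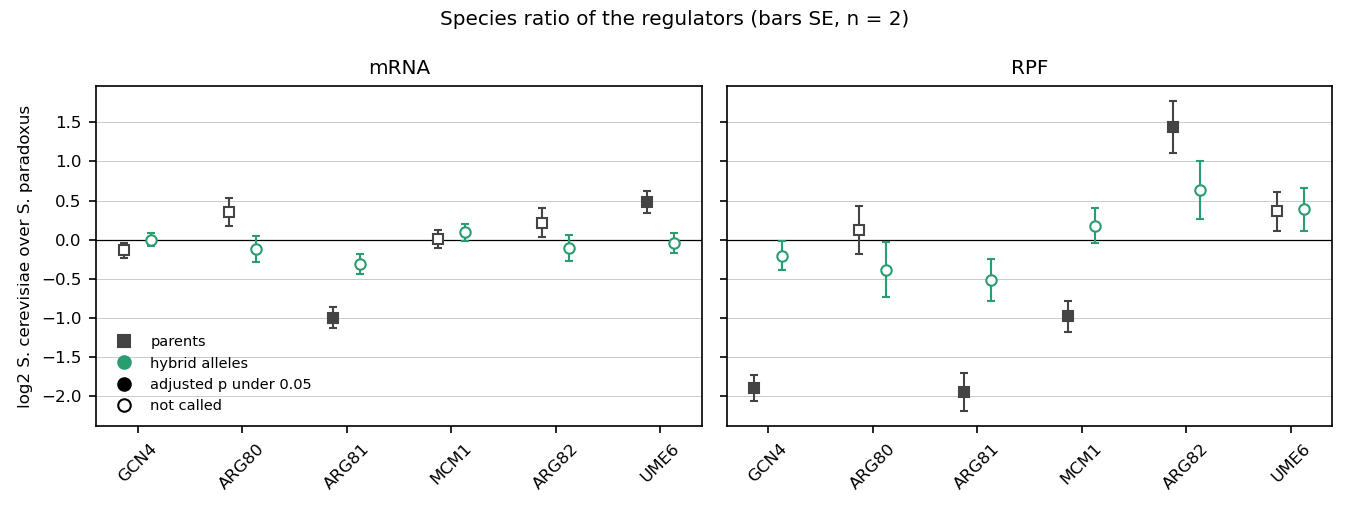
Species ratio (log2 S. cerevisiae over S. paradoxus, bars SE, n = 2) of the 6 regulators in mRNA and RPF, for the parents (squares) and the hybrid copies (circles); filled points passed an adjusted p under 0.05. GCN4 is near 0 in mRNA and at -1.89 in parental RPF, and no hybrid point is filled.

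ORT1, for the mitochondrial ornithine carrier, was higher in the S. cerevisiae parent in mRNA (log2 0.79 ± 0.18, adjusted p = 0.001) and RPF (1.15 ± 0.32, adjusted p = 0.00874). The RPF call was lost without either parental RPF replicate and the mRNA call without parental mRNA replicate 1.

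Of 5 genes of arginine and proline breakdown, 3 were called in parental mRNA, with 2 higher and 1 lower in S. cerevisiae, a share near the 58.6% of all tested genes. CAR1, the arginase gene, was the lower one, at 302 and 342 ppm in the S. cerevisiae parent, against 583 and 630 ppm in the S. paradoxus parent (log2 -0.91 ± 0.10, adjusted p = 1.92e-07). Its hybrid copies stood in the opposite order, at 773 and 697 ppm for S. cerevisiae against 453 and 444 ppm for S. paradoxus (0.71 ± 0.09, adjusted p = 4.68e-06), which gives a trans difference of -1.62 ± 0.13 (adjusted p = 1.53e-08). CAR1 thus had the same arrangement of signs as CPA1. PRO3 and PUT2, for enzymes of proline synthesis and breakdown, were the higher ones in parental mRNA (0.81 ± 0.09 and 1.02 ± 0.11, adjusted p = 3.72e-07 and 1.96e-07). In parental RPF 4 of the 5 were called, 3 higher and 1 lower in S. cerevisiae, where 35.9% of all tested genes were called. The RPF calls of CAR2 and PRO3 were lost without parental RPF replicate 1.

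Of 10 listed transporters, 6 were in the table, and CAN1, ALP1, LYP1 and VBA3 were not analysed here. In parental mRNA 3 of the 6 were higher in S. cerevisiae and 1 was lower, a share near the 58.6% of all tested genes that were called. GAP1, the general amino acid permease, was 7.37-fold higher (log2 2.88 ± 0.38, adjusted p = 3.16e-06), and the vacuolar carrier genes VBA2 and YPQ1 were also higher (2.00 ± 0.31 and 0.48 ± 0.11, adjusted p = 1.94e-05 and 0.000998). RTC2, for a vacuolar exporter of basic amino acids, was lower in S. cerevisiae both between parents (-2.21 ± 0.36, adjusted p = 3.87e-05) and between hybrid copies (-3.27 ± 0.33, 9.63-fold, adjusted p = 4.21e-07). In parental RPF 5 of the 6 were called, 4 higher and 1 lower in S. cerevisiae, where 35.9% of all tested genes were called. The RPF calls of VBA1, YPQ1 and RTC2 were lost without parental RPF replicate 1.

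Over the 16 columns, the levels of ARG3, ARG5,6 and ARG8 moved together (Pearson r = 0.92 for ARG3 with ARG5,6, 0.89 for ARG3 with ARG8 and 0.86 for ARG5,6 with ARG8), and ARG1 correlated with ARG3 at r = 0.88. ARG7 ran against ARG1 (-0.71) and ARG5,6 (-0.79). The columns come in 8 pairs of replicates, and both species of a column share a library, so these values describe the columns and carry no p. For ARG3, the gene with the largest parental mRNA difference, the most alike genes of the whole table were SRL3 (0.95), MCR1 (0.95) and COQ2 (0.94). For ARG1, the gene with the highest mean level per kilobase (294 ppm per kb over all columns), they were YLR179C (0.98), PET10 (0.97) and the unnamed row Scer_16.137 (0.92).

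The neighbours of the 7 genes called in hybrid mRNA were looked at for the same differences. Over all tested genes 38.0% were called in cis mRNA and 36.0% in trans mRNA. A called neighbour alone therefore does not show that a difference was shared along the chromosome. TRL1, the tRNA ligase gene that converges on ARG3 from 186 bases downstream, was lower for the S. cerevisiae copy in hybrid mRNA as well (log2 -1.06 ± 0.13, adjusted p = 3.1e-06) and had a trans difference of the same sign (-0.81 ± 0.19, adjusted p = 0.00259). PPM2, a tRNA methyltransferase gene that ends 219 bases upstream of ARG8, was lower in cis (-0.55 ± 0.14, adjusted p = 0.00468) and in trans (-0.96 ± 0.21, adjusted p = 0.00141). CDC33, which converges on ARG8 from 352 bases downstream and encodes a cap-binding translation factor, was not called (cis -0.09 ± 0.09, adjusted p = 0.477; trans -0.19 ± 0.14, adjusted p = 0.301). GPD2, a glycerol 3-phosphate dehydrogenase gene upstream of ARG1, was not called (cis -0.05 ± 0.11, adjusted p = 0.726; trans -0.32 ± 0.16, adjusted p = 0.114). YOL057W, downstream of ARG1, was slightly lower in cis (-0.29 ± 0.11, adjusted p = 0.0352) and had a trans difference opposite to that of ARG1 (0.43 ± 0.16, adjusted p = 0.0406). The nearest downstream genes of the table were farther away for CPA1 and ARG5,6, at 4887 and 3945 bases, and both were called in cis in the direction of the member (RRG7 0.86 ± 0.17, adjusted p = 0.000603, and TDA2 -1.13 ± 0.17, adjusted p = 3.47e-05). In trans, TDA2 ran against ARG5,6 (0.78 ± 0.25, adjusted p = 0.0203) and RRG7 was not called (0.28 ± 0.25, adjusted p = 0.422). RAX1, the nearest gene of the table upstream of CPA1 at 626 bases, was called in neither (cis -0.18 ± 0.12, adjusted p = 0.259; trans -0.24 ± 0.18, adjusted p = 0.305). Neither direct neighbour of ARG2 or ARG7 was called in cis, nor was MOT2 upstream of ARG5,6. SIP4, upstream of ARG3, was not tested here. Whether reads that run past the end of a gene add to its neighbour was not tested.

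The proteins were well conserved between the species by the authors' deposited table. The ratio of protein-changing to silent substitution rates was 0.00506 for ARG1, above only 2.09% of genes with a value, and it was below the median of 0.0708 in 7 of the 8 genes, the exception being ARG2 at 0.0802. Promoter divergence in that table was 10.1% for ARG3 and 9.85% for ARG8, below the median of 20.5% over all genes, and 16%, 20.3% and 21.6% for ARG1, ARG4 and ARG7. Coding divergence ran from 7.29% in ARG1 to 12.8% in ARG2, around a median of 10.1%. The authors' deposited table marked 3 of the 6 arginine genes with a TATA-box value as having one (ARG1, ARG4 and CPA1), beside 14.3% of all genes with a value. It marked none of the 8 as affected by ploidy or mating type.

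In the calls of the authors' deposited table, which rest on their own test per replicate, 7 of the 8 genes were tested for cis mRNA, and ARG1, ARG2, ARG3, ARG5,6 and ARG8 were called higher for S. paradoxus and ARG7 and CPA1 higher for S. cerevisiae. These are the genes and directions called here, and ARG4 had no test there because replicates disagreed. Of the genes tested for cis mRNA 78% were called by the authors' deposited table, and of those tested for trans mRNA 93.9%, so calls of all tested arginine genes are near the share of all genes. For trans mRNA that table called ARG1, ARG3, ARG5,6, ARG8 and CPA1 for S. paradoxus, as found here, and ARG2 and ARG4 for S. cerevisiae, of which ARG2 was not called here. For translation 4 of the 8 genes were tested in each class in the authors' deposited table: ARG4 was called higher for S. paradoxus in cis, ARG1 for S. cerevisiae and ARG7 for S. paradoxus in trans. Set against TE here, none of these was called. ARG4 in cis (log2 -0.65) and ARG7 in trans (-0.25 ± 0.41) had the authors' direction, and ARG1 in trans had the opposite one (-0.22 ± 0.34). In trans RPF ARG1 was called here, at -3.06 toward S. paradoxus. Of all genes tested for translation in the authors' deposited table, 54% were called in cis and 47.8% in trans. ARG3 and ARG8 were left out of both translation tests of that table for low coverage.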

How the data were processed

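The 8 genes and all gene lists were chosen with earlier results of these data known. The signal analysed was each gene's coverage, summed by the authors over its unmasked bases, with the S. paradoxus coverage scaled by the authors to the same total as S. cerevisiae in each replicate, per the file's description. CASAVA 1.8.2 and Bowtie 0.12 are named in the submitters' processing notes, while no genome build is named in the sources used here. Also deposited by the authors were adjusted p-values with calls from a permutation test of theirs, and scores for sequence divergence between species (a fraction of bases, shown here as a percent) and for substitution rates. No use was made of 24 other per-sample columns. Empty lines numbered 3, and for 235 genes no systematic name was given.

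Values of the 16 columns were divided by the column total to give ppm, and log2 was taken of ppm plus 0.5. Genes with a mean of at least 3 ppm were tested (4544 of 4637). limma 3.58.1 in R 4.3.3 fitted 1 mean of the S. cerevisiae over S. paradoxus ratio per setting, letting the spread depend on mean coverage and giving each setting 1 weight (2.13 for hybrid mRNA, 0.456 for hybrid RPF, 1.79 for parental mRNA and 0.574 for parental RPF), leaving 4 residual degrees of freedom. A second fit of all 16 columns, with 8 residual degrees of freedom, gave hybrid against parent and RPF against mRNA within a copy. Tests were two-sided and adjusted by the Benjamini-Hochberg method over all tested genes. The fit of species ratios was tested on simulated data, and the second fit was not. R64 coordinates were matched by systematic name, and figures were drawn with matplotlib 3.10.9 in Python 3.11.15.

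The genes named were the 8 members, the carrier gene ORT1, the lists of 6 regulators, 5 breakdown genes and 10 transporters, the nearest gene of the table on each side of a member called in hybrid mRNA, and the 3 genes most correlated with ARG3 and ARG1. A further pathway gene is not reported here. Alternatives were 1 spread shared by all settings, a pseudocount of 1 ppm, no filter, median-of-ratios scaling, a replicate block, only the settings of a contrast, an offset for unmasked length, and leaving out each replicate.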

Additional observations from a re-analysis of the deposited data

Results flagged for a closer look

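The species difference was not the same between the parents and between the hybrid copies, by the limma test of the difference itself, in 6 arginine genes for mRNA and in 5 for RPF. The parental minus the hybrid log2 ratio in mRNA was -2.84 for ARG1, -2.92 for ARG3, -0.53 for ARG5,6, -1.53 for ARG8 and -1.75 for CPA1, and 0.51 for ARG4. In RPF it was -3.06 for ARG1, -3.88 for ARG3, -1.86 for ARG5,6, -2.89 for ARG8 and -2.96 for CPA1. Adjusted p-values stand beside these values in the text above. Ploidy, mating type and the URA3 marker differ along with the strains, and the lys2 marker is given only for S. cerevisiae BY4176. The parts of these cannot be told apart.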

How the results depend on the processing

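Of 656 values recomputed under the alternatives other than leaving out replicates, 632 kept their direction and their side of the threshold. Of 832 values from leaving out 1 replicate at a time, 778 did. Many of the 832 left out a replicate of a setting outside the comparison, which cannot move the log2 value. A shared spread, no filter, a replicate block and own settings alone also keep the log2 value. In such cases only the error and the adjusted p could change, so these counts overstate how far the directions were put to a test. No total count of called arginine genes, with both directions summed, moved by more than 1.5 times under the first kind, though the split of S. cerevisiae hybrid minus parent calls did with median-of-ratios scaling (mRNA 3 higher and 1 lower, against 1 and 2; RPF 1 and 1, against 2 and 1), and the calls that were lost stand beside their values above. Leaving out 1 replicate gave 2 to 7 calls in hybrid RPF (cis RPF), against 6 with all libraries, 1 to 4 calls in parental TE, against 3, and 1 to 5 calls of S. cerevisiae hybrid minus parent mRNA, against 3.

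Every value that changed sign was small and not called. With median-of-ratios scaling these were ARG7 parental TE (0.0925), ARG7 trans RPF (0.0359), and S. cerevisiae hybrid minus parent in ARG5,6 mRNA (0.0158) and ARG7 RPF (-0.0522). With 1 replicate left out, cis mRNA of ARG4 ran from -0.283 to 0.104. Cis TE ran from -0.398 to 0.0331 for ARG5,6, from -0.0251 to 0.455 for ARG7 and from -0.0949 to 0.768 for CPA1. Parental TE of ARG1 ran from -0.0241 to 0.176, and trans mRNA of ARG7 from -0.0216 to 0.458. S. cerevisiae hybrid minus parent mRNA ran from -0.645 to 0.0872 for ARG3 and from -0.238 to 0.0405 for ARG5,6, and in RPF from -0.727 to 0.0716 for ARG3 and from -0.177 to 0.2 for ARG7. S. paradoxus hybrid minus parent of ARG7 ran from -0.515 to 0.035 in mRNA and from -0.1996 to 0.153 in RPF. The cause of these changes was not tested.

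Replicate deviations of the species ratio correlated at 0.18 between parental mRNA and parental RPF, and at -0.05 to 0.02 between the other settings. The main fits therefore used no pairing by replicate number. These correlations cannot tell whether libraries of the same number shared a culture, since effects common to both copies cancel in a ratio. With the replicate number as a block, parental TE had 4 calls, adding CPA1 (adjusted p = 0.0377), and the block changed no other call of an arginine gene. Over all tested genes, 1 shared spread gave 600 calls for cis mRNA, 1175 for cis RPF, 552 for trans mRNA and 1019 for trans RPF, against 1727, 552, 1638 and 496 with weights. Median-of-ratios scaling moved the all-gene median of S. cerevisiae hybrid minus parent mRNA from -0.13 to -0.01, with 1208 higher and 1012 lower calls, against 958 and 1353. It moved that of parental TE from -0.09 to 0.03, with 182 higher and 110 lower calls, against 111 and 176, and that of trans TE from -0.07 to 0.06, with 4 higher and 1 lower, against 4 and 6. The number of reads behind a value is unknown, so counting error could not be given, and 2 replicates limit RPF and TE most.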
